A study of Mus musculus with 3 samples.

Results

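The cerebral nuclei (CNU) spots were the capture spots to which the authors gave the brain region label CNU, the atlas name for striatum and pallidum together. All spots with this label were taken from the CON, RES and SUS sections and matched by barcode to the slide positions. They numbered 691 of 8549 retained spots, of which 237 were CON, 220 RES and 234 SUS. The study applied 10x Visium spatial transcriptomics (ST) to coronal sections of the left brain hemisphere of male C57BL/6J mice aged 8 weeks. Each section was 10 μm thick, and each group had 1 section from 1 mouse. RES and SUS mice underwent 10 days of chronic social defeat stress (CSDS) and had a social interaction ratio above 1 (RES) or below 1 (SUS), while CON mice were housed across the same divider from non-aggressive partners. Brains were taken 1.5 h after the final exposure to CSDS.

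The striatum is the input station of the basal ganglia and consists for the most part of inhibitory projection neurons that receive fibres from cortex and thalamus, and the pallidum is one of its targets. Bundles of myelinated axons run along and through both, so the border with the fibre bundle (FB) region is long. A Visium spot binds the mRNA of the tissue lying on it and often covers several cells, and each captured molecule is counted once through its unique molecular identifier (UMI). The share of UMIs on mitochondrial genes (percent.mito) is often read beside RNA quality and energy use, the share on ribosomal protein genes (percent.rb) follows the transcripts of the ribosome's proteins, and the share on red blood cell genes (percent.redcell) follows blood in the tissue. All 3 were calculated by the authors. Only these shares and the numbers of UMIs and genes per spot were analysed here, so the label could not be checked against striatal or pallidal marker genes, and no gene is named below. With few UMIs in a spot, fewer cells, less RNA per cell and less RNA captured or sequenced cannot be told apart.

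Each section had 1 animal, so no test between CON, RES and SUS was possible. Medians over spots carry 95% order-statistic intervals, and shares carry exact 95% Clopper-Pearson intervals. They describe counting error inside a section, not the spread of mice, and section and condition cannot be told apart. Over all retained spots, the median number of UMIs was 12912 in CON and lower in the stressed sections, at 10054.5 in RES and 10947.5 in SUS.

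The CNU spots formed 1 connected piece in every section, all of them under tissue. They took up 8.23% of the retained spots in CON (7.25 to 9.29), compared with 7.78% in RES (6.82 to 8.83) and 8.24% in SUS (7.25 to 9.31). Thus the labelled area differed by less than the counting interval, whereas the share of all UMIs of a section that fell on CNU spots was 8.18% in CON, 6.00% in RES and 5.25% in SUS. The piece was a band running from dorsolateral to ventromedial, over grid rows 30 to 74 in CON, 27 to 70 in RES and 28 to 67 in SUS. FB lay along its medial side. In CON 51 CNU spots touched FB, that is, had at least 1 FB spot among the 6 adjacent places, in RES 43 and in SUS 41. Amygdala (AMY) was touched by 23, 23 and 24 CNU spots in this order, Isocortex by 14, 19 and 16, and the olfactory area (OLF) by 7 in each section. The hypothalamus (HY) was touched by 4 CNU spots in RES, 4 in SUS and 0 in CON. All 6 neighbours were CNU in 133 spots in CON, compared with 122 in RES and 140 in SUS, so the interior of the band was of like size in the 3 sections.

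**Figure D1:**
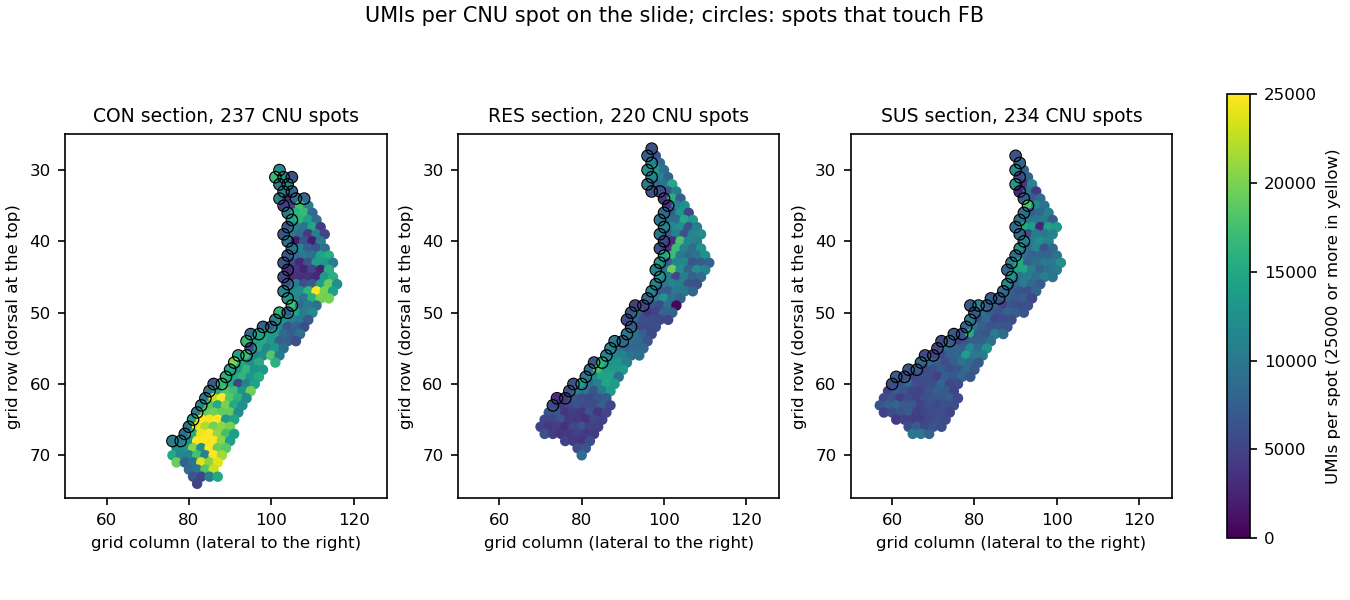
Slide places of CNU spots by section (CON, RES, SUS), as grid column against grid row with dorsal at the top. Colour gives UMIs per spot up to 25000, and black circles mark the 51, 43 and 41 spots that touch FB. The high spots of CON lie in the ventral end of the band, which holds low spots in RES and SUS.

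CNU spots carried fewer UMIs in the RES and SUS sections than in the CON section, and spots with very many UMIs were found mostly in CON. In CON the UMIs per CNU spot ran from 1883 to 32752 with quartiles of 8907 and 16200. In RES they ran from 407 to 19498 with quartiles of 5692 and 10885.8. In SUS they ran from 2596 to 18020 with quartiles of 5988.75 and 9069.25. The 3 distributions overlapped, but the upper quartile of SUS lay close to the lower quartile of CON. Spots with at least 15000 UMIs made up 33.8% of CNU spots in CON (80 spots, 27.8 to 40.2), 4.09% in RES (9 spots, 1.89 to 7.62) and 1.71% in SUS (4 spots, 0.468 to 4.32). Spots below 6000 UMIs made up 11.0% in CON (26 spots, 7.29 to 15.7), 27.7% in RES (61 spots, 21.9 to 34.1) and 25.2% in SUS (59 spots, 19.8 to 31.3). In both classes the intervals of RES and SUS lay apart from that of CON and overlapped each other.

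The depth of the whole section moved with the difference from CON, but not with that between RES and SUS, since SUS had the deeper section and the lower CNU median (7362.5 UMIs, compared with 8101 in RES). Divided by the median over all retained spots of its own section, the CNU median of UMIs was 0.945 in CON, 0.806 in RES and 0.673 in SUS. Ranked from the highest among the 8 larger regions, CNU was in place 5 in CON, 6 in RES and 7 in SUS, with FB lowest in each. Set against CON on this scale, the ratio was 0.853 for RES and 0.712 for SUS, compared with 0.664 (0.545 to 0.787) and 0.604 (0.517 to 0.681) without the division. The CNU spots were thus further below their own section in RES and SUS than in CON, and the part that the depth of a section has in the difference was not tested. A fall against the own section was not particular to CNU. The median UMIs of all AMY spots were 12930, 8159 and 7471 for CON, RES and SUS, and those of OLF 15669, 5542 and 8906. Both regions lay above the section median in the CON section and below it in the stressed sections. The thalamus (11080, 10515 and 12519) and the hippocampus (11522, 10084 and 11005) went the other way.

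The difference between sections was not spread evenly over the band. When the CNU spots of each section were ordered by grid row and divided into 3 parts of equal size, the median UMIs rose from dorsal to ventral in CON and fell in RES and SUS. In CON the dorsal, middle and ventral medians were 9224 (7220 to 10611), 12900 (11571 to 14165) and 17481 (14557 to 19172). In RES they were 10341 (8671 to 11138), 8350 (7891 to 9190) and 5700 (5250 to 6484). In SUS they were 9494.5 (8824 to 10247), 7348 (6859 to 7551) and 6022 (5807 to 6283). The ventral median divided by the dorsal median was 1.90 in CON (1.37 to 2.66) and 0.551 in RES (0.471 to 0.748), with 0.634 in SUS (0.567 to 0.712). These intervals do not overlap between CON and the other sections, and those of RES and SUS do.

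In the dorsal part, the UMIs of CNU were close to CON in both stressed sections, with a ratio of 1.12 for RES (0.817 to 1.54) and 1.03 for SUS (0.832 to 1.42), and intervals of this width leave differences of either sign possible. The middle part had ratios of 0.647 (0.557 to 0.794) and 0.570 (0.484 to 0.653). The ventral part had ratios of 0.326 (0.274 to 0.445) and 0.344 (0.303 to 0.432). Genes per spot followed the same order, with ventral medians of 5517, 2911.5 and 3078 in CON, RES and SUS and dorsal medians of 3958, 4158 and 4028. Of the 10 CNU spots with the most UMIs, 9 lay in the ventral part in CON, whereas 8 lay in the dorsal part in RES and 8 in SUS.

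**Figure D2:**
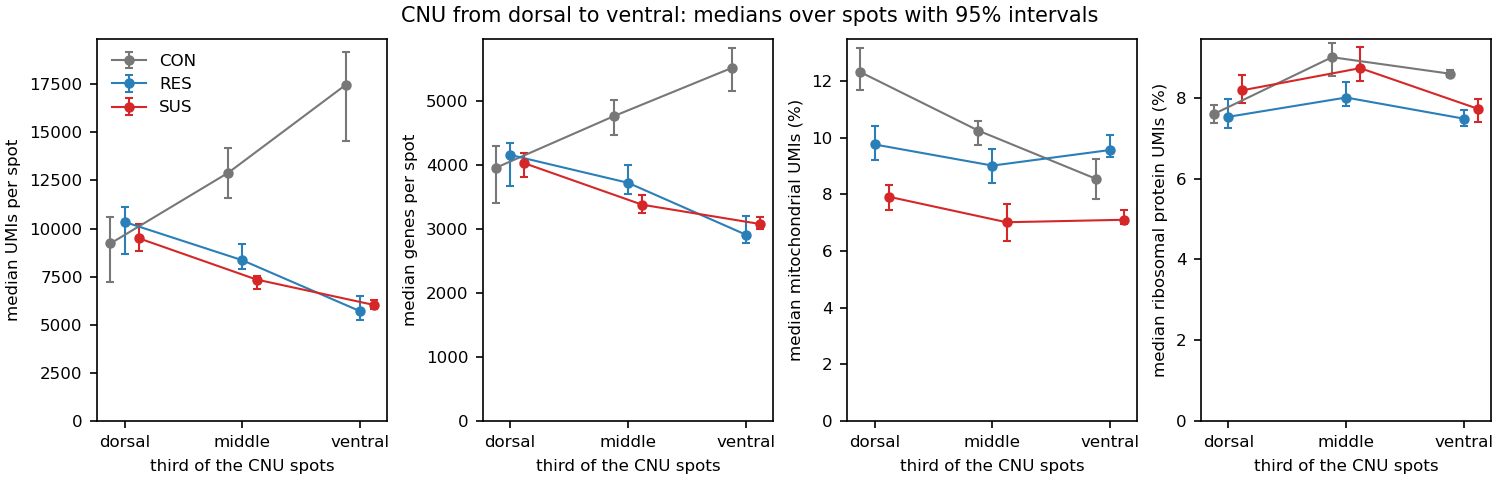
Medians over CNU spots of the dorsal, middle and ventral part of the band for UMIs, genes, mitochondrial percentage and ribosomal protein percentage, in CON (grey), RES (blue) and SUS (red), with 95% order-statistic intervals. UMIs and genes meet at the dorsal end and part at the ventral end, where CON has 17481 UMIs and RES and SUS have 5700 and 6022.

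Neighbouring regions at the same height did not show one common change. In the grid rows of the ventral CNU part, HY spots had a median of 17258 UMIs in CON and 11784 in RES, with 17466 in SUS, so CNU stood at 1.01, 0.484 and 0.345 of HY there. AMY spots in these rows had 14714.5 UMIs in CON, compared with 9172 in RES and 7277.5 in SUS, and OLF spots had 16513.5, 5454 and 8750. CNU stood at 1.19, 0.621 and 0.827 of AMY and at 1.06, 1.05 and 0.688 of OLF. Thus AMY and OLF in these rows were also lower in RES and SUS than in CON. Ventral CNU was low beside HY and AMY in both stressed sections and beside OLF in SUS, and in RES it was level with OLF. From dorsal to ventral within their own spots, the ratio of UMIs was 1.31, 1.2 and 0.886 in AMY and 1.59, 1.22 and 1.36 in HY for CON, RES and SUS. It was 0.977, 1.11 and 0.825 in OLF, 0.382, 0.549 and 0.890 in FB and 0.906, 0.840 and 0.850 in Isocortex. The fall of CNU in RES (0.551) was thus also seen in FB, with smaller falls in Isocortex and the thalamus (0.790 in RES). A difference of these patterns from that of CNU was not tested, since each group had 1 section.

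The number of genes followed the number of UMIs closely. Across CNU spots, which share a library within a section and differ widely in depth, Spearman's rho between UMIs and genes was 0.995 in CON (237 spots), 0.994 in RES (220 spots) and 0.982 in SUS (234 spots). Among spots with 6000 to 12000 UMIs, the median number of genes was 4092 in CON (86 spots, 3905 to 4227), 3727 in RES (124 spots, 3640 to 4006) and 3574.5 in SUS (158 spots, 3469 to 3676). The ratio to CON was 0.911 for RES (0.861 to 1.03) and 0.874 for SUS (0.821 to 0.941).

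This window did not make the depth equal, however. The median UMIs inside it were 9516.5 in CON and 8690 in RES, with 7818 in SUS. In the narrower window of 8000 to 10000 UMIs, added after seeing the data, the SUS ratio was 0.970, and on a line of log genes on log UMIs read at 10000 UMIs it was 1.02. The values on these lines were 4041 genes in CON, compared with 4100 in RES and 4138 in SUS. Both stressed sections had ratios below 1 in each UMI window tried and above 1 on the line (1.01 for RES), and the cause was not tested.

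**Figure D3:**
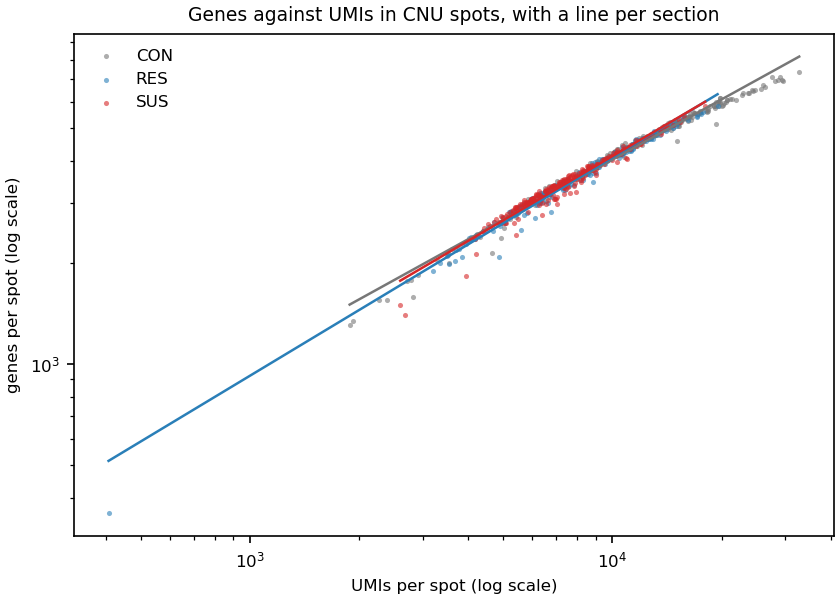
Genes per spot against UMIs per spot in CNU, both axes on a log scale, with 1 point per spot and a fitted line for CON (grey), RES (blue) and SUS (red). The points of the 3 sections lie along one band, and the lines give 4041, 4100 and 4138 genes at 10000 UMIs.

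The mitochondrial share of CNU spots was highest in the CON section and lowest in the SUS section. The median percent.mito was 10.3% in CON (9.98 to 10.6) and 9.49% in RES (9.24 to 9.75), with 7.30% in SUS (7.07 to 7.54). The quartiles were 8.78 and 12.1 in CON, compared with 8.55 and 10.6 in RES and 6.56 and 8.41 in SUS. Thus the upper quartile of SUS lay below the lower quartile of both other sections. The difference from CON was -0.825 percentage points for RES (-1.37 to -0.226) and -3.02 for SUS (-3.54 to -2.44). The section as a whole moved the same way. After the median of the whole section was subtracted, the difference was 0.00768 percentage points for RES and -0.572 for SUS.

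Within the band, percent.mito fell from dorsal to ventral in CON, with medians of 12.3%, 10.2% and 8.54%. In RES the medians were 9.76%, 9.01% and 9.56%, and in SUS 7.91%, 7.01% and 7.10%. CON was thus highest in the dorsal part, and in the ventral part RES exceeded CON by 1.02 percentage points (0.0532 to 2.26). Across CNU spots, Spearman's rho between UMIs and percent.mito was -0.438 in CON (237 spots), 0.0424 in RES (220 spots) and 0.0996 in SUS (234 spots). In CON 9 of the 10 CNU spots with the highest percent.mito were dorsal, at 15.4% to 18.3%, while 8 of 10 in RES and 7 of 10 in SUS were ventral.

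Edge spots of the band had a higher percent.mito in RES than in CON, with intervals apart, while the interval of SUS overlapped both. These spots, with fewer than 6 listed neighbours, numbered 16 in CON and 8 in RES, with 10 in SUS, and 11, 8 and 9 of them lay in the ventral part. In CON 5 of them and in SUS 1 lay inside the section, next to a tissue place that the table does not list, and the others lay at the rim of the tissue. Their median percent.mito was 10.3% in CON (7.84 to 12.6), compared with 15.3% in RES (13.7 to 19.6) and 14.3% in SUS (6.75 to 17.2). At the rim alone it was 9.91% in CON (11 spots, 6.63 to 13.6) and 14.4% in SUS (9 spots, 10.2 to 17.2), with all 8 RES spots as before. All other CNU spots stood at 10.3%, 9.39% and 7.25%. The lowest RES edge spot, at 13.7%, lay above the RES median of those spots. Of the 10 CNU spots with the highest percent.mito, 7 in RES and 6 in SUS were edge spots, and 0 in CON. Without edge spots, the ventral part had a median of 8.54% in CON and 9.47% in RES, with 7.04% in SUS, so RES was still the highest there. Edge spots of all other regions had 11.0%, 10.9% and 13.7%, and their spots with 6 listed neighbours 10.4%, 9.60% and 7.90%. In RES and SUS a higher share in edge spots was thus not particular to CNU. Within CNU, edge spots also had a higher median percent.redcell than the rest in each section (0.0354%, 0.509% and 1.14% against 0.0137%, 0.0698% and 0.295%). Their median UMIs were 11928, 4916 and 6087 against 12253, 8287 and 7364, with overlapping intervals.

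Ribosomal protein transcripts took up a larger share in CNU than in most regions. The median percent.rb was 8.46% in CON (8.25 to 8.57), compared with 7.69% in RES (7.51 to 7.88) and 8.18% in SUS (8.02 to 8.41). This was the third highest of the 8 regions in every section, after FB and HY, and exceeded the median of the whole section by 0.959 percentage points in CON, 0.394 in RES and 0.706 in SUS. RES lay below CON by more than the counting interval, with a difference of -0.768 percentage points (-1.06 to -0.373), and SUS did not, with -0.277 (-0.554 to 0.158). The middle part of the band had the highest share in each section. It stood at 9.01% in CON, 8.01% in RES and 8.74% in SUS, compared with 7.60%, 7.53% and 8.19% in the dorsal part and 8.60%, 7.48% and 7.73% in the ventral part. The difference of SUS from CON changed sign along the band. It was 0.584 percentage points in the dorsal part (0.0622 to 1.21) and -0.871 in the ventral part (-1.28 to -0.532). For RES the difference was -0.0730 in the dorsal part (-0.560 to 0.603) and -1.11 in the ventral part (-1.39 to -0.823).

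Red blood cell transcripts were rare in CNU, with the lowest levels in CON and the highest in SUS. The median percent.redcell was 0.0155% in CON (0.0119 to 0.0179) and 0.0707% in RES (0.0647 to 0.0819), with 0.297% in SUS (0.275 to 0.338). Spots listed at 0 numbered 40 of 237 in CON (16.9%), 3 of 220 in RES (1.36%) and 0 of 234 in SUS, with an exact upper bound of 1.56%. The whole distribution was thus shifted, and the lowest SUS spot, at 0.0877%, lay above the RES median. The section as a whole was shifted alike, and CNU stood at 1.01 of the section median in CON, 0.990 in RES and 1.06 in SUS.

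Spots above 1% were 6 in CON (2.53%, 0.935 to 5.43), compared with 8 in RES (3.64%, 1.58 to 7.04) and 30 in SUS (12.8%, 8.82 to 17.8). Those 30 spots of SUS fell into 22 separate places, the largest of 3 spots. Of the 30, 3 touched FB, compared with 41 of all 234 CNU spots of SUS (17.5%). In the other larger regions of SUS the share above 1% ran from 9.05% in AMY to 22.3% in the hippocampus (HIP). CNU was near the low end of this range, although its median percent.redcell ranked 2 of 8 from the highest in SUS, after HIP at 0.422%. Spots above 1% had a median of 6361 UMIs in SUS and 5339 in RES, compared with 7435.5 and 8250 in the remaining CNU spots, and in CON the medians were 12206 and 12198. Without the spots above 1%, a choice made after seeing the data, CNU had 0.676 (RES) and 0.610 (SUS) times the median UMIs of CON.

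**Figure D4:**
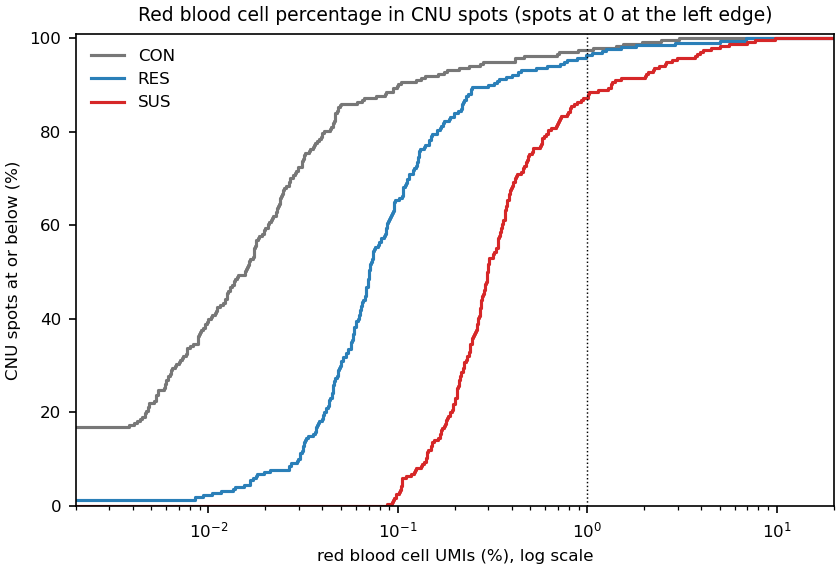
Cumulative share of CNU spots at or below each red blood cell percentage (log axis) in CON (grey), RES (blue) and SUS (red), with the dotted line at 1%. The curves lie apart from left to right, with medians of 0.0155%, 0.0707% and 0.297%.

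CNU spots that touch FB were then compared with those that do not, within each section, since FB had the lowest UMIs and the highest percent.rb of the 8 regions in each section. The 3 sections, although of different conditions, served as replicates in an exact two-sided sign-flip permutation test, whose smallest possible p is 0.25, so that this design cannot reach 0.05. A capture spot at the border can lie over tissue of both regions, and how much of each it covered was not measured.

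UMIs did not differ in one direction. In CON the median was 10305 in spots that touch FB and 13176 in spots that do not, a ratio of 0.782 (0.650 to 0.939). In RES the medians were 8414 and 8006 (1.05, 0.745 to 1.42), and in SUS 7636 and 7275 (1.05, 0.916 to 1.30). The mean ratio over the 3 sections, taken on the log scale, was 0.952, with 1 section lower and 2 higher (exact p = 1). The CON section alone put the mean below 1, and without it the mean ratio was 1.05. Genes behaved alike, with ratios of 0.879, 1.04 and 1.03 in CON, RES and SUS and a mean of 0.982 (exact p = 1).

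The comparison of UMIs also differed with the place in the band. Within the dorsal part of CON, spots that touch FB had 1.02 times the UMIs of the others, and within the middle part 1.14 times. In the ventral part the ratio was 0.568, with 8 touching spots at a median of 10361.5 UMIs against 18233 in the 71 others. In RES the dorsal, middle and ventral ratios were 0.913, 1.06 and 1.12. In SUS they were 0.958, 0.937 and 0.975, all below 1, although the ratio over all SUS spots lay above 1. In SUS no part had the direction of the whole, and in CON 1 part did. Over the dorsal and middle parts of all 3 sections, a comparison added after seeing the data, the mean ratio was 1.0.

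The ribosomal protein share was higher in spots that touch FB in 3 of 3 sections. It was 8.53% against 8.34% in CON, a difference of 0.193 percentage points (-0.257 to 0.710). In RES it was 8.42% against 7.58% (0.838, 0.197 to 1.69), and in SUS 9.70% against 7.97% (1.73, 0.724 to 2.33). The mean difference was 0.921 percentage points (SD 0.773, n = 3 sections, exact p = 0.25, the smallest possible), and without the SUS section it was 0.515. The intervals of RES and SUS lay above 0 and that of CON did not. Within the dorsal part the differences were 0.483 in CON and 1.29 in RES, with 1.66 in SUS, and within the middle part 0.840, 1.05 and 1.33, so in both parts the touching spots were higher in all 3 sections. The ventral part, with 8, 7 and 3 touching spots, gave 0.0102, 0.0482 and 1.08. Of the 10 CNU spots with the highest percent.rb, 4 touched FB in CON, 8 in RES and 7 in SUS, whereas touching spots were 21.5%, 19.5% and 17.5% of all CNU spots.

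The mitochondrial share was also higher in 3 of 3 sections, by 0.0994 percentage points in CON, 0.166 in RES and 0.416 in SUS, but each interval included 0 (mean 0.227, SD 0.167, n = 3 sections, exact p = 0.25, the smallest possible). Without the SUS section this mean was 0.133. Against spots with 6 CNU neighbours it was 0.107 and with means in place of medians 0.117 (exact p = 0.75 for both). Against spots that touch another region and not FB it was 0.696, and with FB counted within 2 steps 0.579 (exact p = 0.25 for both, the smallest possible). Within the dorsal part it was lower in the touching spots of every section, by -1.04, -0.885 and -0.356 percentage points, so the sign of this difference depended on the place in the band. The red blood cell share differed by -0.000103, -0.000904 and -0.0201 percentage points in CON, RES and SUS, with a mean of -0.00704 (SD 0.0113, n = 3 sections, exact p = 0.25, the smallest possible), and each interval included 0. Without the SUS section the mean was -0.000504. Its sign depended on the place as well, since touching spots were lower in the dorsal part of every section (-0.00284, -0.0114 and -0.0873) and higher in the ventral part of every section (0.0485, 0.0319 and 0.112, with 8, 7 and 3 touching spots). At 6000 to 12000 UMIs, touching spots had 0.962, 1.09 and 0.984 times the genes of the others (mean 1.01, exact p = 1), and without the RES section the mean was 0.973. The depth inside this window was not equal, with median UMIs of 9317.5 in touching spots against 9735.5 in the others in CON, 9686 against 8598 in RES and 8196.5 against 7804.5 in SUS. On lines read at 10000 UMIs, touching spots had 4086 genes against 4030 in CON, 4052 against 4113 in RES and 4046 against 4157 in SUS, so the direction turned in CON and RES.

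Across the border itself UMIs were higher on the CNU side. The FB spots that touch CNU had median UMIs of 5238, 4577 and 5502 in CON, RES and SUS and a percent.rb of 10.2%, 10.7% and 11.8%. The other FB spots had 3508, 3406.5 and 5635 UMIs. In CON and RES the fall thus went on inside FB, where the second step from the border had 2827.5 and 1824.5 UMIs, and in SUS it had 5036. Pairing each CNU spot with each FB spot adjacent to it, CNU had more UMIs in 91 of 102 pairs in CON, 71 of 84 in RES and 64 of 80 in SUS, with a median ratio of 2.12, 1.83 and 1.32. In the same pairs, percent.rb was lower on the CNU side by a median of -1.28, -1.41 and -2.0 percentage points. A spot can belong to more than 1 pair, so the pairs are not independent. At the border with AMY the ratio of UMIs was 0.945, 0.955 and 1.01 in 45, 44 and 46 pairs, and percent.rb differed by 0.186, 0.105 and 0.196. At the border with Isocortex the ratio was 0.904 in CON, compared with 1.48 in RES and 1.19 in SUS. There percent.rb was again lower on the CNU side, by a median of -0.248, -1.15 and -0.995 percentage points. A lower percent.rb on the CNU side was therefore not particular to the FB border.

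Further into CNU the ribosomal protein share was lower than near FB. At 1 to 3 grid steps from FB, at 4 or 5 steps and at 6 or more steps, the median percent.rb was 8.56%, 8.25% and 8.03% in CON (137, 69 and 31 spots), 7.95%, 7.34% and 7.48% in RES (130, 64 and 26 spots) and 8.64%, 7.99% and 7.12% in SUS (121, 73 and 40 spots). By single steps, it went from 9.70% at the first to 7.28% at the sixth in SUS, from 8.42% to 7.41% in RES and from 8.53% to 7.98% in CON. The fall was not even, since CON was level over the first 3 steps (8.53%, 8.57% and 8.56%). At the seventh step the share was 8.37% in CON (12 spots) and 7.91% in RES (7 spots), with 7.15% in SUS (11 spots). UMIs over the same classes were 11428, 12600 and 15755 in CON and 8714, 7647 and 5700 in RES, with 7636, 7323 and 6166 in SUS. They increased away from FB in CON and decreased in RES and SUS. Distance from FB and height in the section went together, since 19 of 31 CON spots, 16 of 26 RES spots and 33 of 40 SUS spots at 6 or more steps lay in the ventral part. Compared within each part, spots at 4 or more steps had a lower percent.rb than spots at 1 to 3 steps in the dorsal, middle and ventral part of every section. In the middle part it was 8.25% against 9.22% in CON, 7.48% against 8.51% in RES and 8.14% against 9.25% in SUS. In CON the intervals overlapped there (7.73 to 9.06 and 8.73 to 9.55), and in RES and SUS they did not. Elsewhere some of these differences were small, with overlapping intervals, as in the dorsal part of CON (7.43% against 7.65%) and in the ventral part of CON (8.54% against 8.63%) and RES (7.48% against 7.53%). UMIs showed no such common order. In the ventral part, spots at 4 or more steps had 18167 UMIs against 15331.5 at 1 to 3 steps in CON, 5139 against 6569 in RES and 6121 against 5876 in SUS.

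**Figure D5:**
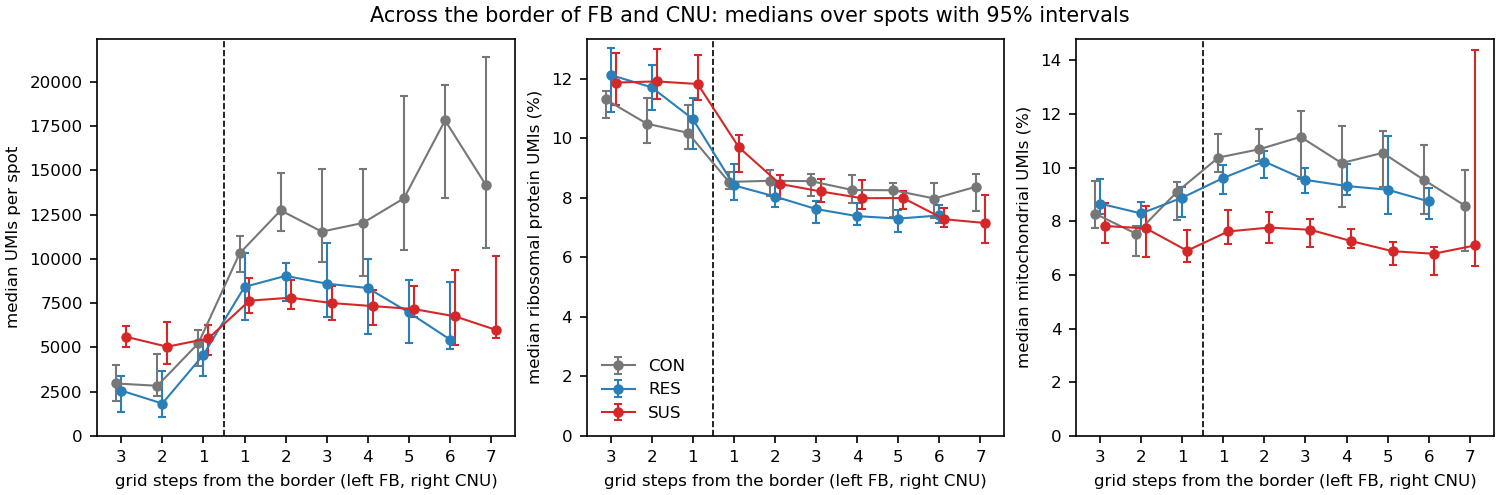
Median UMIs, ribosomal protein percentage and mitochondrial percentage by grid steps from the border of FB and CNU, with FB to the left of the dashed line and CNU to the right, in CON (grey), RES (blue) and SUS (red). Bars are 95% order-statistic intervals and steps with under 10 spots are not drawn. The ribosomal protein percentage drops between the first FB step (10.2%, 10.7% and 11.8%) and the first CNU step (8.53%, 8.42% and 9.70%).

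Adjacent CNU spots were more alike than CNU spots at large. The median fold between the UMIs of 2 adjacent spots was 1.32 in CON (604 pairs), 1.25 in RES (559 pairs) and 1.21 in SUS (604 pairs), compared with 1.59, 1.52 and 1.33 over all pairs of CNU spots in the section. For percent.rb the median distance was 0.487, 0.590 and 0.649 percentage points between adjacent spots and 0.981, 0.856 and 1.11 over all pairs. For percent.mito it was 1.23, 1.06 and 0.922 against 2.47, 1.69 and 1.44. Spots next to each other thus share much of their level, and an interval that counts them as independent is too narrow to that extent.

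The other borders of CNU followed the order from dorsal to ventral. CNU spots that touch Isocortex and not FB lay in the dorsal part with few exceptions (12 of 13 in CON, 16 of 18 in RES and 14 of 14 in SUS), and had median UMIs of 10611 in CON (8577 to 15447), compared with 10608.5 in RES (7837 to 12628) and 9568 in SUS (7807 to 11605). Those that touch AMY and not FB had 12600 in CON (9388 to 14557) and 8074 in RES (5778 to 9306), with 7243.5 in SUS (6520 to 9644). The 7 spots of each section that touch OLF lay ventrally and had 18562 in CON (14059 to 23835), compared with 5139 in RES (4380 to 8854) and 5767 in SUS (5095 to 7695). Thus the intervals of the sections overlapped at the Isocortex border, whereas CON lay apart from RES and SUS at the OLF border. Spots whose 6 neighbours were all CNU had 13422 UMIs in CON (12080 to 14848) and 8208.5 in RES (7323 to 9341), with 7305 in SUS (6820 to 7554), so the order of the sections held in the interior of the band.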

How the data were processed

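The deposited table of spots was used, in which the authors give for each spot the UMI count (not normalized), the gene count and the shares, in percent, of mitochondrial (percent.mito), ribosomal protein (percent.rb) and red blood cell (percent.redcell) transcripts. The authors processed reads with ST Pipeline (per the submitters' processing notes also bcl2fastq, cutadapt and Space Ranger 1.0.0), mapped them to mm10 and, in Seurat, removed genes with under 10 reads or in under 2 spots and spots under 200 UMIs. The lowest CON spot outside CNU nevertheless had 188 UMIs, and the lowest CNU spot had 407. Which genes were summed for these shares is not given in the sources used here. Their products with the deposited UMIs were whole (within 0.001) in 0.289% of CNU spots for the mitochondrial share, so another total underlies them and no counts were derived from them.

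Sections were taken from the table's label and places from the position lists by barcode. A barcode names a place on a slide, and 111 of 580 distinct CNU barcodes occur in 2 sections. The label CTXsp is printed as AMY and Hip as HIP. Adjacent means the 6 nearest grid places. An interval of a ratio or difference of medians combines the opposite bounds of both. Mean ratios over sections are geometric means. Ties of grid row at the limits between the dorsal, middle and ventral part were split by column. The neighbour search, intervals and sign-flip test were checked on simulated data. Members, measures and alternatives were chosen with earlier results of these data known. Alternatives were other spot choices (at least 1000 UMIs, no edge spots, the largest connected piece, not touching FB, other comparison spots, FB within 2 steps), means, other UMI windows, section scaling and leaving out each section. Image scale factors were not used and counts per gene were not analysed here. Software was Python 3.11.15, scipy 1.17.1, pandas 2.3.3, numpy 2.4.6 and matplotlib 3.10.9.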

Additional observations from a re-analysis of the deposited data

Results flagged for a closer look

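The ventral median of UMIs divided by the dorsal median lay above 1 in CON (1.90) and below 1 in RES (0.551) and SUS (0.634), so CNU of the CON section changed the opposite way along the band. The UMIs of spots that touch FB, divided by those of spots that do not, lay below 1 in CON (0.782) and above 1 in RES (1.05) and SUS (1.05). Genes per spot did so as well, with 0.879 in CON compared with 1.04 in RES and 1.03 in SUS. The intervals of the RES and SUS ratios of UMIs included 1 (0.745 to 1.42 and 0.916 to 1.30). Within the dorsal, middle and ventral parts the UMI ratio was 1.02, 1.14 and 0.568 in CON. In RES it was 0.913, 1.06 and 1.12. For SUS it was 0.958, 0.937 and 0.975. In the dorsal and middle parts CON was thus above 1 and SUS below 1, the reverse of the whole sections. The differences between the sections were not tested, since each group had 1 section.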

How the results depend on the processing

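Of 90 values between sections under other settings, 76 stayed inside the counting interval, 11 left it and 3 reversed beyond it. Of the 76, 19 equalled the reported value and say nothing on stability: 12 kept the largest connected piece, which held every CNU spot, and 7 kept spots with at least 1000 UMIs, which left out no spot of CON or SUS and none inside the UMI window of RES. Inside it, the SUS ribosomal protein difference turned to 0.0532 with means and the RES gene ratio at matched UMIs to 1.01 on the line. Division by the section's median gave UMI ratios of 0.853 (RES) and 0.712 (SUS) and gene ratios of 0.892 and 0.804. Subtracting it gave mitochondrial differences of 0.00768 (RES, reversed) and -0.572 (SUS) and red blood cell differences of -0.000877 (RES, reversed) and 0.0156 (SUS). Red blood cell differences of means were 0.120 (RES) and 0.581 (SUS). The SUS gene ratio at matched UMIs was 0.986 at 4000 to 8000, 0.951 at 10000 to 15000, 0.970 at 8000 to 10000 (chosen after seeing the data) and 1.02 on the line (reversed). Of all tissue-covered spots CNU took 6.25% (CON), 5.70% (RES) and 6.17% (SUS).

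For spots that touch FB, 58 of 68 values kept their direction (1 of them equal to the reported value), but not always their size, with a mitochondrial difference of 0.0110 in the dorsal and middle parts and a red blood cell difference of -0.118 with means. Counting FB within 2 steps reversed UMIs to 1.03 and genes to 1.02, and the dorsal and middle parts alone gave UMIs of 1.0. Genes at matched UMIs reversed to 0.984 with means, 0.997 at 4000 to 8000, 0.995 at 8000 to 10000 and 0.991 on the line. Leaving out each section in turn gave 0.906 to 1.05 for UMIs, 0.954 to 1.04 for genes, 0.973 to 1.04 at matched UMIs, 0.133 to 0.291 for the mitochondrial, 0.515 to 1.28 for the ribosomal protein and -0.0105 to -0.000504 for the red blood cell difference. The lowest ribosomal protein mean was that without SUS. The causes of these changes were not tested.

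No paired analysis was possible because each group has 1 section, and the labels give no replicate numbers that pair CON, RES and SUS. The comparison of touching spots is made within sections by its design.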

Other observations

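The shallowest CNU spot of the RES section had 407 UMIs and 361 genes, in the middle of the band and away from FB, while the shallowest of CON and SUS had 1883 and 2596 UMIs, both in the dorsal part. Spearman's rho between the mitochondrial and the ribosomal protein share across CNU spots was -0.399 in CON (237 spots), 0.236 in RES (220 spots) and 0.405 in SUS (234 spots). The spots of a section share a library, and both shares are parts of one total.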
